A study of Mus musculus with 16 samples.

Results

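The class III POU genes Pou3f1, Pou3f2, Pou3f3 and Pou3f4 encode transcription factors of the developing nervous system. They are 4 of the 26411 genes counted, were taken by their symbols, and were each found once. They were chosen because their mRNA levels were already known to differ between these genotypes. The differences of these 4 genes between genotypes are therefore described with their errors and were not tested. Sex, the neighbouring genes and the other listed genes were tested. The lists of other genes were also drawn up with earlier results of these data known. Calls and counts within these lists are therefore not free of that choice. The RNA came from 16 whole mouse embryos of stage E9.5, 4 for each of 4 genotypes, on a hybrid background of the FVB and BALB/c strains. The study asked whether more KAT6B, a histone acetyltransferase, can stand in for its paralogue KAT6A. Kat6a+/+Kat6b+/+ embryos were wild type, and Kat6a-/-Kat6b+/+ embryos carried on both chromosomes a Kat6a allele that lacks internal exons. Kat6a+/+Tg(Kat6b) embryos carried a bacterial artificial chromosome with Kat6b in addition to both endogenous Kat6b alleles, and Kat6a-/-Tg(Kat6b) embryos combined the null allele with this transgene. Each genotype had 2 male and 2 female embryos. The Kat6a-/-Tg(Kat6b) embryos came from litters 483 and 498, which held no other genotype here, so litter and this genotype cannot be told apart. A whole embryo holds all its tissues, so that fewer neural cells and less mRNA per cell cannot be told apart either.

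All POU factors bind DNA through a POU-specific domain and a POU homeodomain joined by a linker, classically at octamer-like motifs. The class III factors often act beside SOX proteins on neural enhancers, and overlap widely in the embryonic brain and spinal cord. Pou3f1, also called Oct6, is known for early neural fate and for the timing of myelination by Schwann cells. Pou3f2 or Brn2 and Pou3f3 or Brn1 share roles in neuron production and migration in the cortex. Pou3f3 is also needed in the kidney tubule, and Pou3f4 or Brn4 on the X chromosome is needed in the mesenchyme of the inner ear.

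The 4 genes are spread over 3 chromosomes of GRCm39. Pou3f1 (Entrez Gene 18991) lies on the plus strand of chromosome 4 from 124550600 to 124554448 and is annotated with a single exon. Pou3f2 (18992) lies on the minus strand of the same chromosome from 22482780 to 22488366, also as a single exon. Pou3f3 (18993) lies on the plus strand of chromosome 1 from 42734085 to 42742336, with up to 4 exons in a transcript. Pou3f4 (18994) is a single-exon gene on the plus strand of the X chromosome from 109857886 to 109860813. The strand setting of the counting is not given in the sources used here. Exons of genes on the opposite strand cover 14.42% of the exon bases of Pou3f1, 11.33% of those of Pou3f2, 3.93% of those of Pou3f3 and none of Pou3f4, and reads from the 2 strands cannot be told apart there.

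RefSeq promoter sequences were at hand for 3 of the 4 genes, Pou3f2, Pou3f3 and Pou3f4, whose mRNA levels moved together across the embryos. They are shown here, with the CCAAT motif in capitals on either strand, because each holds this motif more than once. The 250 bases before each start site are given 5′ to 3′ on the strand of the gene, with GRCm38.p6 positions.
Pou3f2, chr4:22488367-22488616, minus strand: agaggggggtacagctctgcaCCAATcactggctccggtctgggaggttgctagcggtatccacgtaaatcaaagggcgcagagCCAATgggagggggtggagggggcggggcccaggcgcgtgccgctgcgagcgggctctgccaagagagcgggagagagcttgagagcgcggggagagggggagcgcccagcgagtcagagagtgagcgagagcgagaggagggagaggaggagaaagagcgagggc
Pou3f3, chr1:42695518-42695767, plus strand: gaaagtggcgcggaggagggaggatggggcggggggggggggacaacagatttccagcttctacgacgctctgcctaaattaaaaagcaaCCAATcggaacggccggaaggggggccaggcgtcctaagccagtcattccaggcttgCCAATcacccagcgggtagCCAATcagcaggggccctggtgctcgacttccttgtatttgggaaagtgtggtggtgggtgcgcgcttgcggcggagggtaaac
Pou3f4, chrX:110814129-110814378, plus strand: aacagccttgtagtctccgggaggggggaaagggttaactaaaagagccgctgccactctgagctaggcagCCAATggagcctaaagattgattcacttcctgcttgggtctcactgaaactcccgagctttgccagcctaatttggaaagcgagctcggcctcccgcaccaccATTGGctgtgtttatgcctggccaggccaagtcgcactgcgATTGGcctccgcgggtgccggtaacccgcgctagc

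CCAAT, or ATTGG on the other strand, occurred 2 times before Pou3f2, 3 times before Pou3f3 and 3 times before Pou3f4. Of 32851 RefSeq promoters cut to the same 250 bases, 10.1% held it at least 2 times and 2.79% at least 3 times. The octamer ATGCAAAT, searched on both strands with its reverse complement ATTTGCAT, occurred in none of these windows and in 1.60% of all promoters. TATAAA, searched with TTTATA, occurred in none of them and in 12.4% of all. None of the 3 motifs contains another, and a match describes letters only. The GC content of the windows was 66.8% for Pou3f2, 60.8% for Pou3f3 and 58.0% for Pou3f4.

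Gene counts totalled 14407277 in the shallowest and 45665680 in the deepest library. At this depth Pou3f1 had 124 to 479 counts per embryo, Pou3f4 402 to 1012, Pou3f3 970 to 2411 and Pou3f2 1236 to 2780, so that Pou3f1 was measured with the least precision. Levels are given as CPM, read counts scaled to the same nominal library total with TMM factors. Kat6b mRNA was at 46.2 ± 2.45 CPM (SD, n = 4) in Kat6a+/+Kat6b+/+ and 49.1 ± 2.03 in Kat6a-/-Kat6b+/+ embryos, against 192 ± 29.7 with the transgene alone and 197 ± 4.92 with the transgene and the Kat6a null allele. Kat6a counts, taken over the whole gene, were at 199 and 202 CPM in the genotypes without the transgene and do not show the loss of its internal exons.

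Compared per length, as RPKM (CPM per 1000 bases of the length listed for each gene), Pou3f3 had the highest mRNA level of the family in Kat6a+/+Kat6b+/+ embryos at 19.0 ± 1.99 RPKM (SD, n = 4). Pou3f2 followed at 13.8 ± 1.04 RPKM, Pou3f4 at 5.98 ± 0.699 RPKM and Pou3f1 at 3.72 ± 0.728 RPKM. The ranges over the 4 embryos did not overlap between any neighbours in this order. The order of the upper pair depended on the length used. With the exon bases of the GENCODE annotation, Pou3f2 was at 15.5 ± 1.16, Pou3f3 at 10.9 ± 1.14, Pou3f4 at 9.66 ± 1.13 and Pou3f1 at 2.91 ± 0.569 RPKM, with overlapping ranges for Pou3f3 and Pou3f4. The summed level of the 4 genes was 42.5 ± 3.21 RPKM in Kat6a+/+Kat6b+/+ and 43.8 ± 4.33 in Kat6a+/+Tg(Kat6b) embryos. It was 33.6 ± 2.21 in Kat6a-/-Kat6b+/+ and 31.9 ± 3.66 in Kat6a-/-Tg(Kat6b) embryos, whose highest values, 35.5 and 35.7, lay below the lowest Kat6a+/+ value of 38.1.

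Pou3f3 mRNA was lower in both Kat6a-/- genotypes, with or without the Kat6b transgene. In the 4 Kat6a+/+Kat6b+/+ embryos it was at 82.7, 72.5, 89.2 and 92.6 CPM. The Kat6a-/-Kat6b+/+ embryos had 53.7, 57.0, 66.1 and 63.0 CPM, all below the lowest wild-type embryo. Kat6a+/+Tg(Kat6b) embryos had 77.0, 80.4, 97.5 and 97.4 CPM, across the range of the wild type. Levels in Kat6a-/-Tg(Kat6b) embryos were 68.8, 52.3, 66.6 and 53.0 CPM, again with no overlap with the wild type. The mean level was 71.1% ± 6.70 (SD, n = 4) of the wild-type mean in Kat6a-/-Kat6b+/+ and 71.4% ± 10.4 in Kat6a-/-Tg(Kat6b) embryos. The fitted log2 fold change, here and below from edgeR with 2 surrogate variables (factors for unwanted variation), was -0.47 (SE 0.044) in Kat6a-/-Kat6b+/+ relative to wild-type embryos. It was -0.36 (SE 0.046) in Kat6a-/-Tg(Kat6b) and 0.02 (SE 0.044) in Kat6a+/+Tg(Kat6b) relative to wild-type embryos, and these 3 contrasts share the wild-type embryos. Without surrogate variables these 3 changes were -0.49 (SE 0.11), -0.49 (SE 0.11) and 0.06 (SE 0.11). Between the Kat6a-/- genotypes, Pou3f3 differed by 0.11 (SE 0.046, higher with the transgene) with 2 surrogate variables, and the embryos overlapped. This difference was -0.00030 with 1 surrogate variable and 0.0016 (SE 0.11) with none. With offsets for the GC content of genes it was 0.14 (SE 0.046). With the summed level of 12 early neuron genes as covariate, an alternative added later, it was 0.25 (SE 0.054). With 2 surrogate variables it was at 0.063 without the first Kat6a-/-Tg(Kat6b) and at 0.073 without the second wild-type embryo.

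Pou3f2 mRNA was also lower in both Kat6a-/- genotypes, by less than Pou3f3. It was at 85.7, 78.2, 89.0 and 93.6 CPM in Kat6a+/+Kat6b+/+ embryos and at 69.0, 71.8, 73.0 and 78.3 CPM in Kat6a-/-Kat6b+/+ embryos. The highest embryo of the second group reached just past the lowest wild-type embryo. Kat6a+/+Tg(Kat6b) embryos had 79.8, 85.8, 98.5 and 87.6 CPM and Kat6a-/-Tg(Kat6b) embryos 70.0, 62.7, 80.4 and 60.8 CPM. The mean was 84.3% ± 4.51 of the wild-type mean in Kat6a-/-Kat6b+/+ and 79.0% ± 10.3 in Kat6a-/-Tg(Kat6b) embryos. The log2 fold changes against the wild type were -0.23 (SE 0.048), -0.26 (SE 0.050) and, with the transgene alone, -0.01 (SE 0.048). Without surrogate variables they were -0.24 (SE 0.082), -0.35 (SE 0.082) and 0.02 (SE 0.082).

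Pou3f4 mRNA was lowest in Kat6a-/-Tg(Kat6b) embryos, at 24.7, 19.1, 25.2 and 17.9 CPM. It was at 29.3, 23.4, 30.1 and 30.3 CPM in Kat6a+/+Kat6b+/+, at 22.2, 26.1, 25.6 and 28.5 CPM in Kat6a-/-Kat6b+/+ and at 26.3, 28.5, 31.2 and 32.1 CPM in Kat6a+/+Tg(Kat6b) embryos. One wild-type embryo, at 23.4 CPM, lay far below the other wild-type embryos and within both Kat6a-/- groups. The log2 fold change was -0.11 (SE 0.064) in Kat6a-/-Kat6b+/+, -0.26 (SE 0.069) in Kat6a-/-Tg(Kat6b) and 0.02 (SE 0.065) in Kat6a+/+Tg(Kat6b) relative to wild-type embryos. The first of these moved to -0.038 without the third Kat6a-/-Kat6b+/+ embryo and to -0.070 without the first, and the change with the transgene alone took either sign when single embryos were left out. Without surrogate variables the changes were -0.14 (SE 0.11), -0.39 (SE 0.11) and 0.06 (SE 0.11) in the same order.

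Pou3f1 mRNA, the least abundant, was at 12.4, 13.3, 8.26 and 10.9 CPM in Kat6a+/+Kat6b+/+ embryos. The Kat6a-/-Kat6b+/+ embryos had 9.13, 9.25, 10.1 and 8.34 CPM. Its level was 10.7, 10.6, 13.2 and 10.3 CPM with the transgene alone and 7.64, 8.49, 7.65 and 10.5 CPM in Kat6a-/-Tg(Kat6b) embryos. The wild-type embryos spread over all of the other groups but for the 2 lowest of Kat6a-/-Tg(Kat6b). The log2 fold change was -0.28 (SE 0.12), -0.44 (SE 0.13) and 0.06 (SE 0.12) in the same order of contrasts. The last value lay between -0.091 and 0.168 when single embryos were left out. Without surrogate variables the changes were -0.29 (SE 0.13), -0.37 (SE 0.13) and 0.0050 (SE 0.13). The transcript of Pou3f1 has a GC content of 63.91%, at the 99.07th percentile of genes. The trend of each library with GC content, read at this gene, averaged 0.024 on the log2 scale in wild-type and -0.056 in Kat6a-/-Tg(Kat6b) libraries, and with offsets for it the log2 fold change between them was -0.36 (SE 0.13).

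**Figure D1:**
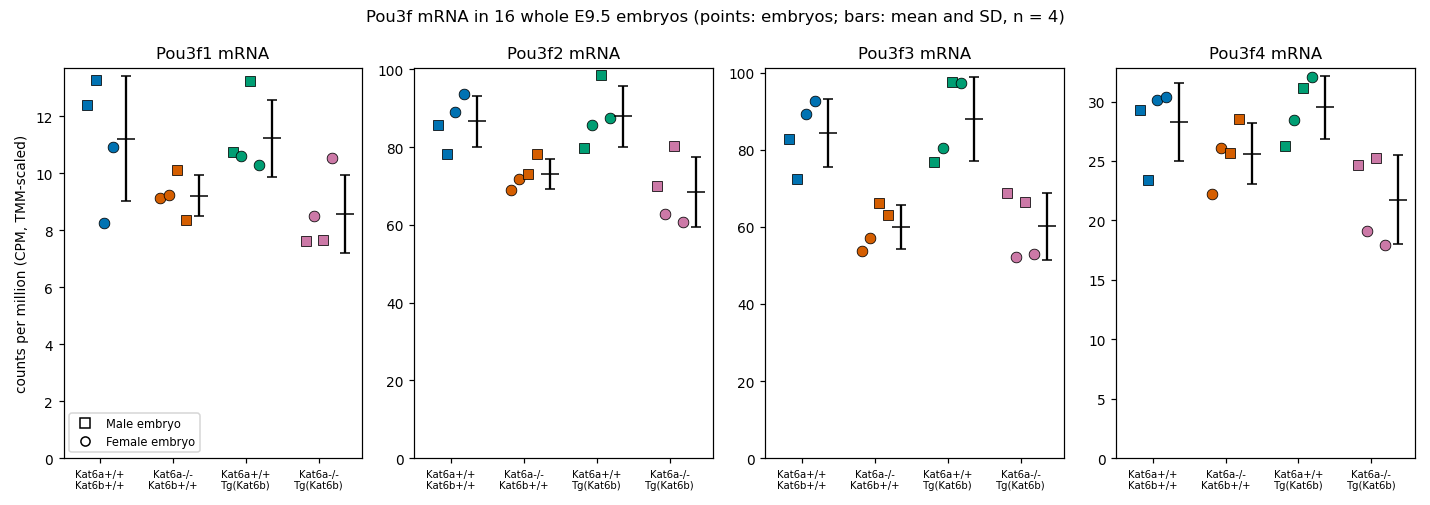
CPM of each Pou3f gene (y axis, from 0) in each of the 16 embryos by genotype (x axis), with squares for male and circles for female embryos and bars for the mean and SD of 4 embryos. Pou3f3 in the Kat6a-/-Kat6b+/+ embryos sits between 53.7 and 66.1 CPM, below all wild-type embryos, and in both Kat6a-/- genotypes the female embryos are the lowest for Pou3f2 and Pou3f3.

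The members' ranges may be set beside those of all tested genes, without drawing support from it, since the members were chosen on these contrasts. In Kat6a-/-Kat6b+/+ relative to Kat6a+/+Kat6b+/+ embryos, 1 of the 4 genes, Pou3f3, had groups that did not overlap, and so did 7.97% of 15679 tested genes in either direction. In Kat6a-/-Tg(Kat6b) relative to wild-type embryos it was again Pou3f3, against 7.10% of all tested genes. In Kat6a+/+Tg(Kat6b) relative to wild-type embryos it was 0 of 4 against 4.00%, and between the Kat6a-/- genotypes 0 of 4 against 15.2%. In Kat6a-/-Tg(Kat6b) relative to Kat6a+/+Tg(Kat6b) embryos Pou3f3 and Pou3f4 did not overlap, both lower, against 10.5%. In Kat6a+/+Tg(Kat6b) relative to Kat6a-/-Kat6b+/+ embryos Pou3f1, Pou3f2 and Pou3f3 did not overlap, all higher, against 15.8%. With both genotypes carrying the transgene, the log2 fold changes of Kat6a-/- relative to Kat6a+/+ embryos were -0.50 (SE 0.14) for Pou3f1, -0.25 (SE 0.052) for Pou3f2, -0.38 (SE 0.048) for Pou3f3 and -0.28 (SE 0.071) for Pou3f4. Without surrogate variables they were -0.37 (SE 0.13), -0.37 (SE 0.081), -0.55 (SE 0.11) and -0.45 (SE 0.11).

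The share of Pou3f3 in the summed RPKM was lower in Kat6a-/-Kat6b+/+ embryos. It made up 44.6% ± 1.59 of the family's level (SD, n = 4) in Kat6a+/+Kat6b+/+ embryos, between 42.8% and 46.3%. In Kat6a-/-Kat6b+/+ embryos it made up 40.1% ± 1.43, between 39.05% and 42.2%, below the wild-type range. Its share in Kat6a-/-Tg(Kat6b) embryos was 42.3% ± 1.82, between 41.1% and 45.0%, which overlapped both. The share of Pou3f2 was 32.5% ± 0.290 in wild-type, 34.7% ± 1.19 in Kat6a-/-Kat6b+/+ and 34.2% ± 1.53 in Kat6a-/-Tg(Kat6b) embryos. The ratio of Pou3f3 to Pou3f2, both in RPKM, was 1.37 ± 0.0461 in wild-type and 1.16 ± 0.0816 in Kat6a-/-Kat6b+/+ embryos, with ranges of 1.31 to 1.41 and 1.10 to 1.28. These shares depend on the length used. With the GENCODE exon bases, an alternative added later, Pou3f3 made up 27.9% ± 0.960 of the family's level in the wild type, 24.2% ± 1.14 in Kat6a-/-Kat6b+/+ embryos and 26.2% ± 1.20 with the transgene added to the null allele, with ranges of 27.0% to 28.9%, 23.4% to 25.9% and 25.3% to 27.9%. The Kat6a-/-Kat6b+/+ range thus lay below the wild-type range with either length. The share of Pou3f2 was then 39.8% ± 0.489 in wild-type and 40.9% ± 1.08 in Kat6a-/-Kat6b+/+ embryos, whose ranges overlapped.

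Litters were unevenly spread over the genotypes, and the sexes over the litters, so the same values were read within litters. Litter 801 held a wild-type male with 82.7 CPM of Pou3f3 and 2 Kat6a-/-Kat6b+/+ females with 53.7 and 57.0. Litter 803 held a wild-type male with 72.5 CPM and 2 Kat6a-/-Kat6b+/+ males with 66.1 and 63.0. In both litters the Kat6a-/- embryos were below their littermate, by more in litter 801, where they also differed from it in sex. For Pou3f2 the Kat6a-/- embryos had 69.0 and 71.8 against 85.7 CPM in litter 801 and 73.0 and 78.3 against 78.2 in litter 803, where they met the wild-type embryo. When litter was added as a block for the 12 embryos from the 4 litters with 2 genotypes, the log2 fold change in Kat6a-/-Kat6b+/+ relative to wild-type embryos was -0.38 (SE 0.11) for Pou3f3, -0.17 (SE 0.081) for Pou3f2, -0.48 (SE 0.14) for Pou3f1 and -0.04 (SE 0.11) for Pou3f4. Litters 2597 and 2598 held the Kat6a+/+Tg(Kat6b) embryos with wild-type females, whose Pou3f3 level of 89.2 CPM in litter 2597 lay among the transgenic values of 77.0, 80.4 and 97.5.

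**Figure D2:**
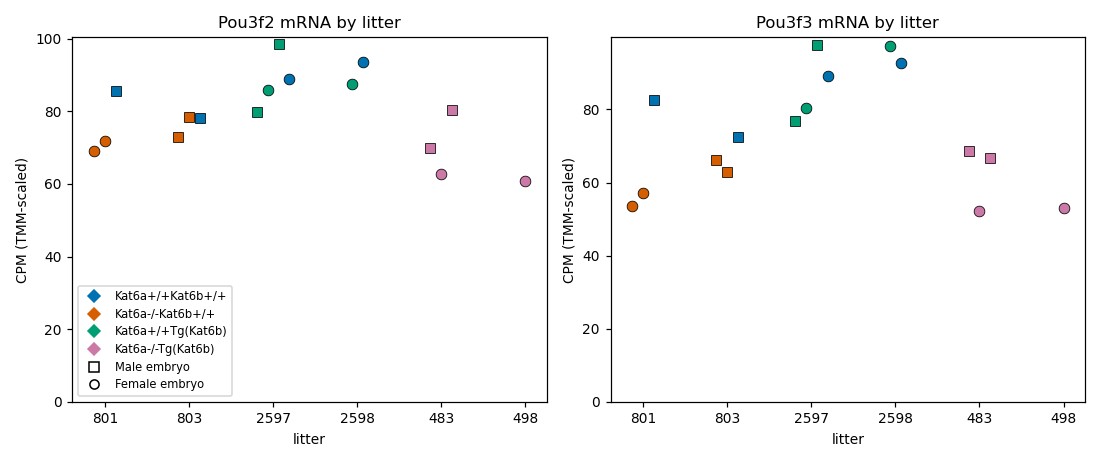
CPM of Pou3f2 and Pou3f3 (y axis, from 0) in each embryo by litter (x axis), coloured by genotype, with squares for male and circles for female embryos. The Kat6a-/-Kat6b+/+ embryos lie below their wild-type littermates for Pou3f3 in litters 801 and 803, and litters 483 and 498 hold Kat6a-/-Tg(Kat6b) embryos alone.

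Over all 16 embryos, none of the 4 genes differed past the threshold between 8 female and 8 male embryos. The female minus male log2 difference was -0.08 (95% interval -0.25 to 0.09) for the X-linked Pou3f4 and -0.08 (-0.25 to 0.09) for Pou3f3. It was -0.07 (-0.19 to 0.05) for Pou3f2 and -0.07 (-0.27 to 0.13) for Pou3f1, all with an edgeR FDR of 0.998, where 0.0765% of the tested genes passed an FDR of 0.05.

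In the values of these embryos, the difference between genotypes nevertheless had another size in each sex, which was seen first and then computed. These values, from 2 embryos of each sex per genotype, do not show that it depends on sex. The change of the female minus male difference between Kat6a+/+ and Kat6a-/- embryos, given below, passed the FDR threshold for none of the members. In females Pou3f3 was at 89.2 and 92.6 CPM in wild-type, 53.7 and 57.0 in Kat6a-/-Kat6b+/+ and 52.3 and 53.0 in Kat6a-/-Tg(Kat6b) embryos. In males it was at 82.7 and 72.5, 66.1 and 63.0, and 68.8 and 66.6 CPM. Kat6a-/- embryos were therefore lower in each sex, with the wider gap in females. No wild-type female shared a litter with a Kat6a-/- embryo, so genotype and litter cannot be told apart in the female gap. Among males, wild-type and Kat6a-/-Kat6b+/+ embryos shared litter 803, but Kat6a-/-Tg(Kat6b) males shared none with the wild type. Fitted on 8 embryos of a sex without surrogate variables, the log2 fold change of Pou3f3 in Kat6a-/-Kat6b+/+ relative to wild-type embryos was -0.71 (SE 0.075) in females and -0.27 (SE 0.11) in males, and in Kat6a-/-Tg(Kat6b) relative to wild-type embryos -0.78 (SE 0.075) and -0.20 (SE 0.11). Pou3f4 in the latter contrast was at -0.71 (SE 0.092) in females and -0.08 (SE 0.13) in males, and Pou3f2 at -0.56 (SE 0.051) and -0.13 (SE 0.11). Pou3f1 had the opposite order, at 0.03 (SE 0.15) in females and -0.74 (SE 0.16) in males. The fits by sex also differed over all genes. They called 902 genes in females and 23 in males for Kat6a-/-Kat6b+/+, and 1520 and 17 for Kat6a-/-Tg(Kat6b), relative to wild-type embryos. The wild-type and Kat6a-/-Kat6b+/+ females and males came from different litters, so that sex and litter cannot be told apart in them. Within litter 483 a Kat6a-/-Tg(Kat6b) female had 52.3 CPM of Pou3f3 and the 2 males 68.8 and 66.6, and within litter 2597 a Kat6a+/+Tg(Kat6b) female had 80.4 and the 2 males 77.0 and 97.5.

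The female minus male difference of the members was fitted separately in the 8 Kat6a+/+ and the 8 Kat6a-/- embryos, a comparison chosen after the values of the embryos were seen. In Kat6a-/- embryos the log2 difference was -0.29 for Pou3f3 (edgeR FDR = 0.110), -0.29 for Pou3f4 (FDR = 0.115), -0.19 for Pou3f2 (FDR = 0.189) and 0.17 for Pou3f1 (FDR = 0.527), where 0.485% of the tested genes passed. In Kat6a+/+ embryos it was 0.12 for Pou3f3 (FDR = 0.840), 0.13 for Pou3f4 (FDR = 0.840), 0.05 for Pou3f2 (FDR = 0.929) and -0.31 for Pou3f1 (FDR = 0.758), where 0.0702% passed. The difference between the Kat6a states was -0.41 for Pou3f3 (95% interval -0.64 to -0.18, FDR = 0.110), -0.43 for Pou3f4 (-0.67 to -0.18, FDR = 0.110), -0.25 for Pou3f2 (-0.44 to -0.05, FDR = 0.231) and 0.48 for Pou3f1 (0.15 to 0.81, FDR = 0.167). None of the 4 passed the threshold, which 0.217% of the tested genes did.

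**Figure D3:**
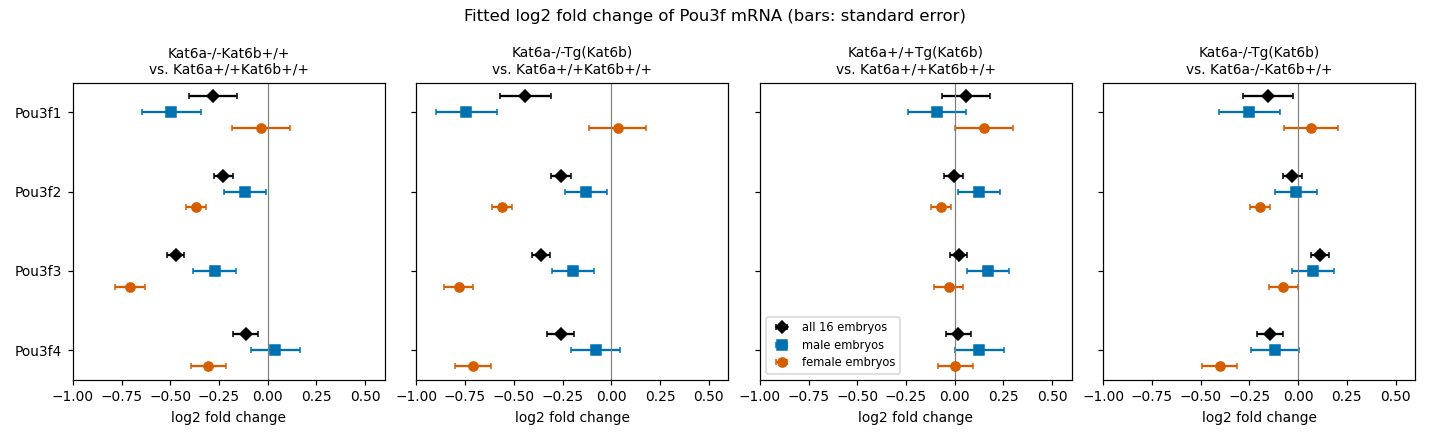
Fitted log2 fold change with its standard error (x axis) of the 4 genes (y axis) in 4 contrasts, from all 16 embryos with 2 surrogate variables (black) and from male (blue squares) or female (orange circles) embryos without surrogate variables. For Pou3f2, Pou3f3 and Pou3f4 the female values lie further below 0 than the male ones in both Kat6a-/- genotypes relative to the wild type, for Pou3f3 at -0.71 and -0.27 in Kat6a-/-Kat6b+/+ embryos.

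Genes of early neurons varied with the members between embryos of the same genotype. The summed CPM of 12 such genes, among them Tubb3, Dcx and Elavl3, ranged from 283 to 429 in wild-type, 338 to 414 in Kat6a-/-Kat6b+/+, 317 to 435 in Kat6a+/+Tg(Kat6b) and 228 to 354 in Kat6a-/-Tg(Kat6b) embryos. The lowest wild-type embryo for this sum was the one lowest for Pou3f2, Pou3f3 and Pou3f4, and the 2 Kat6a-/-Tg(Kat6b) females, at 228 and 230, were lowest of their genotype for the sum and for all 3 genes. As a description over 16 embryos, which share libraries and scaling, the deviations from the genotype mean of log2 CPM correlated with those of the neuron sum at Pearson r = 0.94 for Pou3f3, 0.91 for Pou3f4, 0.90 for Pou3f2 and -0.35 for Pou3f1. In contrast, the Kat6a-/-Kat6b+/+ embryos had neuron sums within the wild-type range and Pou3f3 levels below it. With this sum as a covariate in place of the surrogate variables, an alternative chosen after the values were seen, Pou3f3 had a log2 fold change of -0.50 (SE 0.046) in Kat6a-/-Kat6b+/+ and -0.25 (SE 0.054) in Kat6a-/-Tg(Kat6b) relative to wild-type embryos. For Pou3f2 these were -0.25 (SE 0.043) and -0.17 (SE 0.051), and for Pou3f4 -0.15 (SE 0.064) and -0.14 (SE 0.076). Genes of blood, heart and endothelium, 13 in all, summed to between 2328 and 3921 CPM in all embryos, and their deviations correlated with those of Pou3f3 at r = 0.19. The sum of 18 neural tube regional genes was at 522 to 534 CPM in wild-type and 484 to 498 in Kat6a-/-Kat6b+/+ embryos, without overlap. It was at 552 to 604 CPM in Kat6a+/+Tg(Kat6b) and 516 to 531 in Kat6a-/-Tg(Kat6b) embryos. The part of these regional genes in the members' values was not tested. For their sum, r was 0.44 for Pou3f3, 0.50 for Pou3f2, 0.24 for Pou3f4 and 0.35 for Pou3f1. For 9 factors that can act beside class III POU factors, it was 0.81, 0.86, 0.78 and -0.37.

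**Figure D4:**
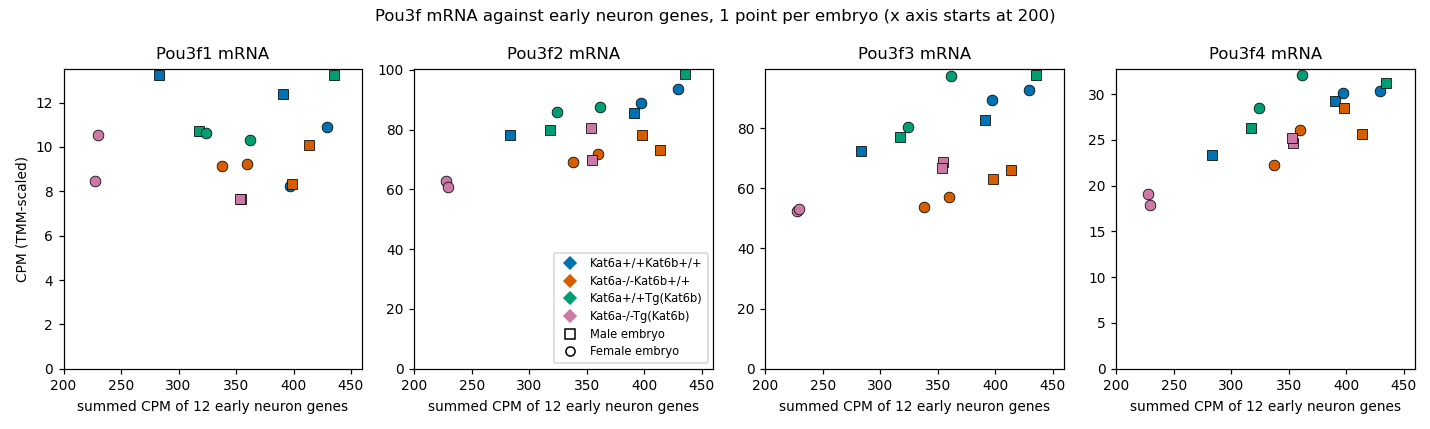
CPM of each Pou3f gene (y axis, from 0) against the summed CPM of 12 early neuron genes (x axis, not from 0), with 1 point per embryo coloured by genotype, squares for males and circles for females. Pou3f2, Pou3f3 and Pou3f4 are higher in embryos with a higher sum, and the Kat6a-/-Kat6b+/+ embryos, with sums of 338 to 414, lie lower for Pou3f3 than the Kat6a+/+ embryos.

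Pou3f2, Pou3f3 and Pou3f4 also varied with each other, and Pou3f1 stood apart. Over 16 embryos the Pearson r of log2 CPM was 0.93 for Pou3f2 and Pou3f3, 0.92 for Pou3f2 and Pou3f4 and 0.86 for Pou3f3 and Pou3f4. Pou3f1 correlated with the others at 0.40, 0.44 and 0.21, and its deviations from genotype means at -0.35, -0.36 and -0.54. Among 12904 genes whose average log2 CPM reached 1, those most like Pou3f3 were Rnf122 (r = 0.96), Tle5 (0.95), which encodes a co-repressor of the Groucho family, and Fgfr3 (0.92), a fibroblast growth factor receptor. Most like Pou3f2 were Draxin (0.93), an axon guidance protein, Sema6c (0.93), a semaphorin, and Kcnn1 (0.93), a potassium channel. Most like Pou3f4 were Robo3 (0.92), an axon guidance receptor, Stmn4 (0.92), a stathmin, and Cpt1a (0.92), a carnitine palmitoyltransferase, and most like Pou3f1 were 1700008J07Rik (0.82), Fam181b (0.80) and Fam131b (0.77). These values over all embryos include the differences between genotypes. On deviations from genotype means other genes led, named after their values were seen. They were Lrrn1 (0.97), Oxct1 (0.97) and Map2 (0.96) for Pou3f3, Nckap5 (0.96), Id4 (0.94) and Ctnna2 (0.94) for Pou3f2, and Gm14434 (0.87), Tada2a (0.87) and Gm33933 (0.86) for Pou3f1, while Stmn4 (0.96) led for Pou3f4, before Pou2f2 (0.94) and Col25a1 (0.94). Rnf122 was then at 0.89 with Pou3f3, Draxin at 0.91 with Pou3f2 and Fam131b at 0.54 with Pou3f1.

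Genes beside the members were tested, since the choice of members did not use them. Of 38 annotated genes that start within 500 kb of a member, 25 passed the filter, and Rspo1 alone was called in any contrast. Rspo1, an activator of WNT signalling that starts 329 kb from Pou3f1, was downregulated in Kat6a-/-Kat6b+/+ relative to wild-type embryos, from 16.8 ± 1.502 to 13.6 ± 0.267 CPM (SD, n = 4; log2 fold change -0.31, edgeR FDR = 0.0392, where 1.88% of all tested genes passed). This call was lost in 10 of 16 alternatives, among them no surrogate variable and the litter block, and when any of 9 single embryos was left out, 3 of the wild type, all 4 Kat6a-/-Kat6b+/+ and 2 Kat6a-/-Tg(Kat6b). None of the 25 passed in Kat6a-/-Tg(Kat6b) relative to wild-type embryos, where 0.670% of the tested genes did, nor in Kat6a+/+Tg(Kat6b) relative to wild-type embryos, where 0.140% did. None passed between the Kat6a-/- genotypes, where 7.14% of all tested genes did. Rspo1 was also higher in Kat6a+/+Tg(Kat6b) than in Kat6a-/-Kat6b+/+ embryos, at 17.5 ± 1.11 CPM (log2 fold change 0.36, edgeR FDR = 0.00401, where 12.7% of all tested genes passed). No single embryo ended this call, but the litter block (0.48, FDR = 0.457) and the male embryos alone did, and these genotypes share no litter.

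Pantr1, a long noncoding RNA that starts 499 bases from Pou3f3 on the opposite strand, was at 11.97, 8.12, 13.8 and 13.8 CPM in wild-type embryos. In Kat6a-/-Kat6b+/+ embryos it was at 8.91, 12.04, 12.5 and 13.2 CPM and did not differ past the threshold (log2 fold change 0.02, edgeR FDR = 0.943). In Kat6a-/-Tg(Kat6b) embryos it was at 10.3, 7.16, 11.96 and 8.50 CPM (-0.12, FDR = 0.682), and in Kat6a+/+Tg(Kat6b) embryos at 12.7, 11.3, 14.2 and 15.5 (0.12, FDR = 0.704). Its spread between wild-type embryos was wide, and exons on the other strand overlap 22.05% of its own. Within embryos the ratio of Pou3f3 to Pantr1 CPM was 7.25 ± 1.14 (SD, n = 4) in wild-type and 5.21 ± 0.602 in Kat6a-/-Kat6b+/+ embryos, between 6.45 and 8.93 and between 4.73 and 6.02. The ratio in Kat6a-/-Tg(Kat6b) embryos was 6.44 ± 0.732, between 5.57 and 7.31. The noncoding gene Gm20646, which starts 10.7 kb upstream of Pou3f3 and runs across it on the same strand, was at 0.866 ± 0.284 CPM in wild-type embryos and was not called in any contrast.

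**Figure D5:**
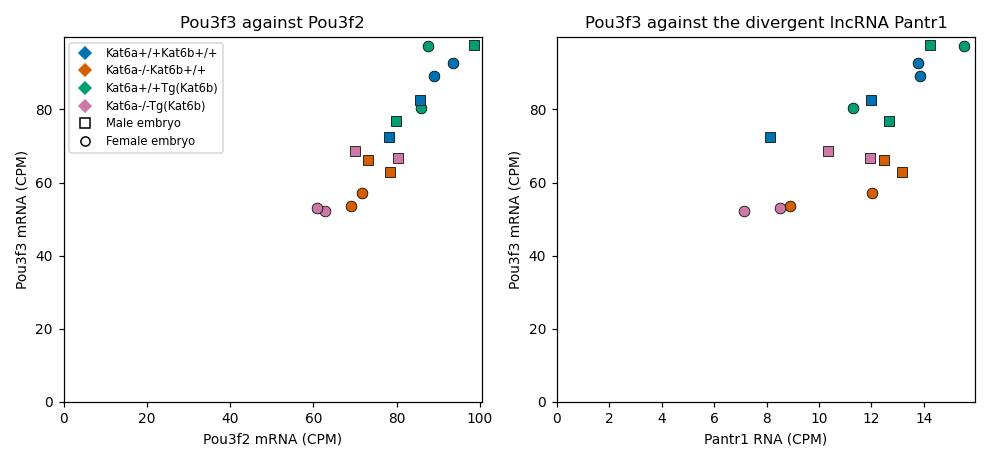
CPM of Pou3f3 (y axes, from 0) against Pou3f2 and against Pantr1 (x axes, from 0), with 1 point per embryo coloured by genotype, squares for males and circles for females. The Kat6a-/-Kat6b+/+ embryos have Pantr1 levels of 8.91 to 13.2 CPM, within the wild-type range of 8.12 to 13.8, and lower Pou3f3.

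Beside Pou3f1, the overlapping noncoding gene Gm2164 was at 0.873 ± 0.247 CPM in wild-type embryos and the ribosome biogenesis factor Utp11 at 54.5 ± 2.22, with log2 fold changes of -0.09 (edgeR FDR = 0.930) and 0.03 (FDR = 0.857) in Kat6a-/-Kat6b+/+ embryos. Beside Pou3f2, the noncoding Gm30731, which overlaps it, was at 1.37 ± 0.257 CPM and the F-box gene Fbxl4 at 7.19 ± 0.722, with -0.08 (FDR = 0.906) and 0.05 (FDR = 0.862). Pou3f4 had no tested neighbour within this window, since Gm7134 and Cylc1 had 0 counts in every embryo.

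The SOX proteins and other factors that can act beside class III POU factors were all detected. None of 9 passed the threshold in either Kat6a-/- genotype relative to the wild type, although 8 of 9 and 9 of 9 had log2 fold changes below 0, with medians of -0.07 and -0.11 against 0.00 over all genes. Sox2, a neural progenitor factor, was at 168 ± 4.43 CPM in wild-type and 184 ± 8.72 in Kat6a+/+Tg(Kat6b) embryos, against 158 ± 4.46 for Kat6a-/-Kat6b+/+ and 157 ± 4.5995 for Kat6a-/-Tg(Kat6b). The 2 Kat6a-/- genotypes were compared with Kat6a+/+Tg(Kat6b) embryos next. Sox2 and Sox1 fell in Kat6a-/-Tg(Kat6b) relative to Kat6a+/+Tg(Kat6b) embryos (-0.21, edgeR FDR = 0.00744, and -0.23, FDR = 0.0149), as did Sox4 (-0.14, FDR = 0.0273), where 3.41% of all tested genes passed. Sox2 (0.21, edgeR FDR = 0.000818) and Sox1 (0.20, FDR = 0.00702) were higher in Kat6a+/+Tg(Kat6b) than in Kat6a-/-Kat6b+/+ embryos, where 12.7% passed. In neither contrast do the genotypes share a litter. The Kat6a-/-Tg(Kat6b) embryos came from litters without another genotype, so litter and genotype cannot be told apart in their calls against Kat6a+/+Tg(Kat6b) embryos. With litter as a block, Kat6a+/+Tg(Kat6b) and Kat6a-/-Kat6b+/+ embryos are linked through the wild type. None of the listed genes called between them then passed (Sox2 0.19, edgeR FDR = 0.679). The call of Sox4 was lost without any of 6 single embryos, 3 of each Kat6a-/- genotype, and that of Sox1 between the Tg(Kat6b) genotypes without either of 2 Kat6a-/-Tg(Kat6b) embryos. Sox3, Sox10, Sox11, Sox21 and Myt1l were not called in any contrast. Myt1l was at 0.907 ± 0.231 CPM in wild-type and 0.460 ± 0.135 in Kat6a-/-Kat6b+/+ embryos (-1.0032, FDR = 0.114).

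Of 12 genes named as targets of class III POU factors, 8 passed the filter, and none was called in either Kat6a-/- genotype relative to the wild type. Nes, the intermediate filament of neural progenitors, was downregulated in Kat6a+/+Tg(Kat6b) relative to wild-type embryos (446 ± 39.8 to 391 ± 18.9 CPM, -0.21, edgeR FDR = 0.0298) and in Kat6a-/-Tg(Kat6b) relative to Kat6a-/-Kat6b+/+ embryos (460 ± 41.0 to 387 ± 40.2 CPM, -0.19, FDR = 0.0103). The first of these calls was lost in 11 of 16 alternatives and without any of 9 single embryos, the second in 7 of 15 and without 1 Kat6a-/-Tg(Kat6b) embryo. Dll1, a Notch ligand, was at 66.9 ± 1.97 CPM in wild-type and 62.4 ± 3.81 in Kat6a-/-Kat6b+/+ embryos (-0.11, FDR = 0.329). It was higher in Kat6a+/+Tg(Kat6b) than in Kat6a-/-Kat6b+/+ embryos (0.25, FDR = 0.00361), while the ephrin receptor Epha4 (-0.23, FDR = 0.00939) and Nes (-0.26, FDR = 0.000274) were lower. With litter as a block the FDR was 0.705 for Dll1, 0.610 for Epha4 and 0.751 for Nes. Fabp7, Egr2, Mitf and Gcg were not called in any contrast. Crh, Avp, Oxt and Drd1 did not pass the filter.

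Other POU genes gave no called difference between the Kat6a-/- genotypes and the wild type. Pou1f1, Pou2f3, Pou4f2, Pou4f3 and Pou5f2 did not pass the filter, and 6 of the 11 did. Pou2f1, the widely expressed Oct1, was at 112 ± 14.4 CPM in wild-type and 120 ± 6.75 in Kat6a-/-Kat6b+/+ embryos (log2 fold change 0.10, edgeR FDR = 0.744). It was lower in Kat6a+/+Tg(Kat6b) than in Kat6a-/-Kat6b+/+ embryos, at 88.0 ± 13.8 CPM (-0.46, FDR = 0.0292). This call was lost with the litter block (-0.27, FDR = 0.842) and when any Kat6a-/-Kat6b+/+ embryo or 1 Kat6a+/+Tg(Kat6b) embryo was left out. Pou4f1, the sensory neuron factor Brn3a, was at 11.4 ± 1.93 CPM in wild-type and 8.44 ± 1.81 in Kat6a-/-Tg(Kat6b) embryos (-0.30, FDR = 0.289).

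Genes that mark regions of the neural tube were compared as the setting of the members' expression. Of 18 tested, Six3, a forebrain and eye factor, and Lhx2, a forebrain factor, were downregulated in Kat6a-/-Kat6b+/+ relative to wild-type embryos. In this contrast 1.88% of all tested genes passed in either direction. Six3 fell from 15.6 ± 0.739 to 12.4 ± 0.164 CPM (log2 fold change -0.34, edgeR FDR = 0.0269) and Lhx2 from 51.9 ± 2.74 to 41.1 ± 3.37 CPM (-0.34, FDR = 0.00123). With litter as a block neither passed, at -0.29 (FDR = 0.478) for Six3 and -0.33 (FDR = 0.118) for Lhx2. Six3 also missed the threshold without any of 7 single embryos, 3 of the wild type and all 4 Kat6a-/-Kat6b+/+, whereas no single embryo ended the call of Lhx2. The median over the list was -0.09, with 15 of 18 below 0, against 0.00 over all genes. None of the 18 was called in Kat6a-/-Tg(Kat6b) relative to wild-type embryos, at a median of -0.03, where 0.670% of all tested genes passed. Six3 was higher in Kat6a-/-Tg(Kat6b) than in Kat6a-/-Kat6b+/+ embryos (0.40, FDR = 0.00516), as was Irx3, a factor of the neural tube and mesoderm (0.17, FDR = 0.0105), where 7.14% passed. In Kat6a+/+Tg(Kat6b) relative to Kat6a-/-Kat6b+/+ embryos 10 of the 18 were higher, where 12.7% of all tested genes passed in either direction. None of the 18 was below 0, at a median of 0.23 against -0.00165 over all genes. Six3 (0.55, FDR = 9.97e-05) and Lhx2 (0.35, FDR = 0.000258) were among the 10, but with the litter block no gene of the list passed there. Side by side, Six3 was at 16.2 ± 1.02 CPM and Pou3f3 at 60.2 ± 8.73 CPM in Kat6a-/-Tg(Kat6b) embryos, against 15.6 and 84.3 in the wild type.

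The early neuron genes were read in the same way. None of 12 was called in Kat6a-/-Kat6b+/+ relative to wild-type embryos, with a median log2 fold change of 0.04. All 12 were below 0 in Kat6a-/-Tg(Kat6b) relative to wild-type embryos, with a median of -0.15, and Tubb3, a neuronal tubulin, was called (-0.30, edgeR FDR = 0.00982), though not without either of 2 Kat6a-/-Tg(Kat6b) embryos. In Kat6a-/-Tg(Kat6b) relative to Kat6a-/-Kat6b+/+ embryos, 5 were downregulated, namely Tubb3 (-0.36, FDR = 0.000492), the stathmin Stmn2 (-0.44, FDR = 0.00402), Nhlh2 (-0.37, FDR = 0.0120), the microtubule protein Dcx (-0.42, FDR = 0.0256) and the RNA-binding Elavl3 (-0.29, FDR = 0.0267), where 7.14% of all tested genes passed. The calls of Dcx and Elavl3 were each lost without any of 7 single embryos, and that of Nhlh2 without 1 Kat6a-/-Tg(Kat6b) embryo. Pou3f4 differed by -0.15 (SE 0.067; -0.082 without the fourth Kat6a-/-Tg(Kat6b) embryo) and Pou3f3 by 0.11 (SE 0.046) in this contrast. In the contrast of Kat6a+/+Tg(Kat6b) with Kat6a-/-Kat6b+/+ embryos, 6 of the 12 were lower, among them Dcx (-0.68, edgeR FDR = 0.000701) and Nhlh2 (-0.43, FDR = 0.00204), and Neurog2 was higher (0.29, FDR = 0.0484), where 12.7% of all tested genes passed. There Pou3f2 differed by 0.22 (SE 0.048) and Pou3f3 by 0.49 (SE 0.044). These 7 calls were lost with litter as a block, under which Neurog2 was at -0.23. The part of the neuron genes in the members' values was not tested.

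Pou3f3 also acts in the kidney lineage, whose forerunner at this stage is the intermediate mesoderm. Of 6 genes of this tissue, the nephric duct factors Pax2 and Lhx1 were downregulated in Kat6a-/-Kat6b+/+ relative to wild-type embryos, where 1.88% of all tested genes passed. Pax2 fell from 9.64 ± 0.35992 to 7.26 ± 0.707 CPM (log2 fold change -0.40, edgeR FDR = 0.0440) and Lhx1 from 4.62 ± 0.692 to 2.87 ± 0.579 CPM (-0.63, FDR = 0.0121), and the median over the list was -0.23. The call of Pax2 was lost in 11 of 16 alternatives, among them limma-voom and no surrogate variable, and without any of 13 single embryos, which included every embryo of both groups. That of Lhx1 was lost in 6 of 16 and without any of 3, 1 wild-type and 2 Kat6a-/-Kat6b+/+. With litter as a block the FDR was 0.511 for Pax2 and 0.588 for Lhx1. Lhx1 reached 4.18 ± 0.452 CPM in Kat6a-/-Tg(Kat6b) embryos, higher than in Kat6a-/-Kat6b+/+ embryos (0.63, FDR = 0.00696). None of the 6 was called in Kat6a-/-Tg(Kat6b) relative to wild-type embryos. Both genes are also expressed in the neural tube, and whole embryos do not part the 2 sources. None of the 13 blood, heart and endothelial genes was called against the wild type in any genotype. The term for a joint effect of both alleles was past the threshold for no gene of these lists.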

How the data were processed

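Whole-embryo RNA was made into TruSeq libraries and sequenced as read pairs, which the authors aligned to mm39 with Rsubread. Per the labels, featureCounts was used. The deposited values are counts per gene and embryo, unnormalized, with gene lengths. The annotation release and strand setting are not given in the sources used here. No other value columns were used (0 left unmapped).

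From the counts, filterByExpr (minimum count 10, minimum total 15) kept 15679 genes. edgeR 4.0.16 in R 4.3.3 gave TMM factors between 0.985 and 1.02 and a robust quasi-likelihood fit over all 16 embryos, with 2 surrogate variables from sva 3.50.0 (20 permutations, log2 CPM with prior count 2). The FDR is the Benjamini-Hochberg adjusted p over the whole tested set, and 0.05 was its threshold. Sex was tested with genotype as covariate and no surrogate variables. Embryos of a genotype are separate animals. The fits were first tested on simulated data. limma 3.58.1 (voom) and DESeq2 1.42.0 were alternatives.

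The members, the 7 lists of 81 genes and the alternatives were chosen with earlier results of these data known. Genes were named by rule: all members, list genes past the threshold (at most 4 by fold change), detected partners and targets, nearest neighbours, and for each member the 3 genes of highest r. Some genes that this rule names are not reported here. The early neuron level as covariate and the fits by sex were added after values were seen, and Six3 and some list genes are repeated where members are set beside them. Positions follow GENCODE M39. Motif counts and promoters use RefSeq on GRCm38.p6.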

Additional observations from a re-analysis of the deposited data

Results flagged for a closer look

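Among 40 groups of 4 embryos examined for 1 value far from the rest, 2 passed Dixon's 95% critical value, and chance alone passes about 1 in 20 groups. In Kat6a+/+Tg(Kat6b) embryos, Pou3f1 was at 13.2 CPM in replicate 3 and at 10.3 to 10.7 in the other embryos, a gap of 0.851 of the range. In Kat6a+/+Kat6b+/+ embryos, Pou3f4 was at 23.4 CPM in replicate 2 and at 29.3 to 30.3 in the other embryos, a gap of 0.844 of the range. The second embryo also had the lowest summed level of early neuron genes of its genotype, at 283 CPM, and the part of this in the value was not tested.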

How the results depend on the processing

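All 384 fits that left out 1 embryo and 322 of 324 other refits met a loose rule for the members' log2 fold changes. A refit met it within 1 SD of the spread within genotypes, unless a change clear of its standard error turned its sign. The SD exceeded several of the changes themselves, so a refit near 0 or of the other sign could meet the rule. Pou3f4 in Kat6a-/-Kat6b+/+ relative to wild-type embryos met it at -0.038 against -0.11. The exceptions were Pou3f1 in Kat6a+/+Tg(Kat6b) relative to Kat6a-/-Kat6b+/+ embryos with litter as a block (0.74) and Pou3f3 between the Kat6a-/- genotypes with 1 surrogate variable (-0.00030). The former moved past 1 SD and the latter turned its sign. With the early neuron level as covariate, added later, Pou3f4 between the Kat6a-/- genotypes was at 0.0042 and Pou3f3 at 0.25 (SE 0.054). The cause was not tested.

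Fits by sex, also added later, used 8 embryos and no surrogate variables. In the female fits no wild-type embryo shared a litter with a Kat6a-/- embryo, so genotype and litter cannot be told apart there. In females Pou3f1, Pou3f2, Pou3f3 and Pou3f4 were at -0.034, -0.37, -0.71 and -0.31 in Kat6a-/-Kat6b+/+ relative to wild-type embryos, at 0.033, -0.56, -0.78 and -0.71 in Kat6a-/-Tg(Kat6b) relative to wild-type embryos, and at 0.067, -0.19, -0.076 and -0.40 between the Kat6a-/- genotypes. They were at -0.12, -0.49, -0.75 and -0.71 in Kat6a-/-Tg(Kat6b) relative to Kat6a+/+Tg(Kat6b) embryos, and Pou3f1, Pou3f3 and Pou3f4 at 0.18, 0.68 and 0.31 in Kat6a+/+Tg(Kat6b) relative to Kat6a-/-Kat6b+/+ embryos. In males Pou3f2 and Pou3f3 were at -0.12 and -0.27 in Kat6a-/-Kat6b+/+, Pou3f1 at -0.74 in Kat6a-/-Tg(Kat6b) and Pou3f2 at 0.13 in Kat6a+/+Tg(Kat6b) relative to wild-type embryos.

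Of the listed genes, 4 were called in Kat6a-/-Kat6b+/+ relative to wild-type embryos, against 2 with no or 1 surrogate variable or with the 2 genotypes alone, 1 with sex in their place, 0 with the litter block or in males and 10 in females (1 to 5 without single embryos). In Kat6a-/-Tg(Kat6b) relative to wild-type embryos 1 was called, against 2 without a filter, 3 by DESeq2, 4 with gene length offsets, 26 in females and 0 with at least 10 counts in every embryo, no or 1 surrogate variable, sex, 2 genotypes or males (0 to 3). In Kat6a+/+Tg(Kat6b) relative to wild-type embryos 1 was called, against 2 by DESeq2 or in females and 0 under both filters, no or 1 surrogate variable, sex, the litter block, GC offsets, 2 genotypes or males (0 to 1). Between the Kat6a-/- genotypes 10 were called, against 3 with no or 1 surrogate variable, sex or 2 genotypes, 0 in males and 17 in females (5 to 14). Between the Tg(Kat6b) genotypes 6 were called, against 0 in males and 25 in females (3 to 10). In Kat6a+/+Tg(Kat6b) relative to Kat6a-/-Kat6b+/+ embryos 28 were called, against 17 with no or 1 surrogate variable, sex or 2 genotypes, 0 with the litter block, 4 in males and 11 in females (19 to 29). Neurog2 then turned to -0.23 with the litter block. Of the neighbours, 1 was called in Kat6a-/-Kat6b+/+ relative to wild-type embryos, against 0 without a filter, with no or 1 surrogate variable, sex, the litter block, 2 genotypes, males or females (0 to 1). In the other contrasts, neighbours rose from 0 to 3 in females (Kat6a-/-Tg(Kat6b) relative to wild type), to 1 with limma-voom or length offsets (between the Kat6a-/- genotypes, 0 to 1) and to 1 with no surrogate variable or in females (between the Tg(Kat6b) genotypes, 0 to 2), and went from 1 to 2 with length offsets and 0 with the litter block or in males (Kat6a+/+Tg(Kat6b) relative to Kat6a-/-Kat6b+/+).

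Replicate numbers did not pair the embryos (correlation of deviations between -0.26 and 0.22). With the replicate number as a block, 260 of all genes were called in Kat6a-/-Kat6b+/+ relative to wild-type embryos against 295, 12 against 22 in Kat6a+/+Tg(Kat6b) relative to wild-type embryos and 286 against 535 between the Tg(Kat6b) genotypes. This block gave 0 listed genes in Kat6a+/+Tg(Kat6b) and 0 neighbours in Kat6a-/-Kat6b+/+ relative to wild-type embryos, and with GC offsets 0, 0 and, between the Tg(Kat6b) genotypes, 2 listed genes. Over all genes, Kat6a-/-Kat6b+/+ relative to wild-type embryos gave 95 calls without surrogate variables, 18 with the litter block, 23 in males and 902 in females, and Kat6a-/-Tg(Kat6b) relative to wild-type embryos gave 105, against 241 by DESeq2, 211 with length offsets, 17 in males and 1520 in females. Depth limits Pou3f1 most.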

Other observations

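For the female minus male difference of the members between Kat6a-/- and Kat6a+/+ embryos, leaving out single embryos moved the FDR between 0.0011 and 0.260 for Pou3f3, 0.012 and 0.271 for Pou3f4, 0.0084 and 0.422 for Pou3f2 and 0.110 and 0.367 for Pou3f1. It passed the threshold for Pou3f2, Pou3f3 and Pou3f4 without Kat6a+/+Tg(Kat6b) replicate 3, and for Pou3f3 also without replicate 2 of that genotype (FDR = 0.0451). With all embryos none of the members passed, and the comparison was chosen after the values were seen. These passes therefore show only how far single embryos move the FDR.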
